A study of Mus musculus with 9 samples.

Results

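Metformin was compared with vehicle in R878H hematopoietic progenitors by their H3K27me3 intervals, using 4 of the 8 immunoprecipitated libraries of the study. The libraries were taken by label: RH VEH 1 and RH VEH 2 from vehicle-treated mice, RH MET 1 and RH MET 2 from metformin-treated mice. A call in a library meant that at least 1 bp of a merged region, or of a protein-coding gene span, lay under one of its intervals. Of 18556 regions merged over the whole study, 739 carried an interval in RH MET 1 and RH MET 2 but in no vehicle library, and 54 in RH VEH 1 and RH VEH 2 but in no metformin library. Of 21887 protein-coding genes, 236 and 16 were called in these ways.

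The RH cells carried the Dnmt3afl-R878H/+ allele, a conditional form of a mutation in the DNA methyltransferase gene Dnmt3a, on a C57BL/6 background. They also carried Mx1-cre, a recombinase gene behind an interferon-responsive promoter, as did the Dnmt3a+/+ wild-type (WT) cells, which had 2 vehicle (WT VEH) and 2 metformin (WT MET) libraries. All cells were taken fresh from bone marrow of female mice that had been transplanted and then kept for 1 month with or without metformin, a biguanide that inhibits complex I of the mitochondrial respiratory chain. They were enriched with magnetic kits for lineage-negative cells and then for c-Kit, the stem cell factor receptor. The labels give neither the dose, the ages nor the share of host cells left in the marrow, and they do not say that replicates came from separate animals. P-values here therefore measure only the spread between libraries, which may be technical.

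H3K27me3 is the trimethyl mark that Polycomb repressive complex 2, through its catalytic subunit Ezh2 or Ezh1, places on histone H3. It spreads over domains around silenced genes, above all developmental regulators with CpG-rich promoters, and is taken off by the demethylases Kdm6a and Kdm6b. In blood progenitors it covers programmes of other tissues and of lineages not yet entered, and its distribution is tied to DNA methylation, which Dnmt3a lays down.

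Promoters of 4 genes described below are shown because they differ in CG content and in whether an interval covered the start site. A call itself needs only an overlap with the gene span. Each line gives the 250 bases before the start site in the promoter table, 5′ to 3′, from RefSeq (GRCm38.p6), with every CG dinucleotide in capitals. The first 3 genes were called in both RH MET libraries and neither RH VEH library, and Dntt in both RH VEH libraries and neither RH MET library. The Irf1 sequence lies on the plus strand at chr11:53769764-53770013, Csf3r on the plus strand at chr4:126024409-126024658, Tmsb10 on the minus strand at chr6:72958749-72958998 and Dntt on the plus strand at chr19:41029025-41029274.
Irf1: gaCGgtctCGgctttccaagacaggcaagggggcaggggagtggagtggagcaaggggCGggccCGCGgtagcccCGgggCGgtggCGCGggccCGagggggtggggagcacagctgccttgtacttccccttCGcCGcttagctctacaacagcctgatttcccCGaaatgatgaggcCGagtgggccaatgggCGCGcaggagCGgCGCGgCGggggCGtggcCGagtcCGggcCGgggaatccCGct
Csf3r: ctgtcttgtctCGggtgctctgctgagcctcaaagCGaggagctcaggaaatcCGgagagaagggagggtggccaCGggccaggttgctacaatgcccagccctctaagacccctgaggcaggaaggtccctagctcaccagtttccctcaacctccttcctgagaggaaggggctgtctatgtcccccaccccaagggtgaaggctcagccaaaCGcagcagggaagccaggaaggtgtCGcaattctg
Tmsb10: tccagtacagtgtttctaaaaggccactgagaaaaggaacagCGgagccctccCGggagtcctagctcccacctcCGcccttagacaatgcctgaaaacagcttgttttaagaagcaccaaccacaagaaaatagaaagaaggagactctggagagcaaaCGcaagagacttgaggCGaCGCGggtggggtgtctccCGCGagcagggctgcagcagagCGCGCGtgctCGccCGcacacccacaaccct
Dntt: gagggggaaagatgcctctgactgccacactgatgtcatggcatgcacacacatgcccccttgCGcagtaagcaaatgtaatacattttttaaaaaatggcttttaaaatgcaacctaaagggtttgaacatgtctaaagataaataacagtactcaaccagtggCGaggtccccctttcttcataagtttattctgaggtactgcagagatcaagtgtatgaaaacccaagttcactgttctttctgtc
Irf1 holds 25 CG dinucleotides, Tmsb10 14, Csf3r 6 and Dntt 2. Of 21263 promoter windows of the same length, 93.4% hold at least 1 CG, which reads the same on both strands, and the median is 10. As many as in Irf1 are held by 13.8%, and as many as in Tmsb10, Csf3r and Dntt by 39.5%, 62.2% and 84.9%. The start sites of Irf1, Csf3r and Tmsb10 lay inside an interval in both RH MET libraries, and that of Dntt lay outside every RH interval.

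The vehicle libraries were the unlike pair. RH VEH 1 held 11620 intervals over 80.0 Mb and RH VEH 2 held 13339 over 155 Mb, against 16879 over 122 Mb in RH MET 1 and 15257 over 131 Mb in RH MET 2. Median summit heights, the authors' own score, were 12, 14, 15 and 15 in that order, and the highest summits 72, 119, 152 and 129. The X chromosome held 5.71% of the intervals of RH VEH 1, 13.9% of RH VEH 2, 10.6% of RH MET 1 and 8.70% of RH MET 2. Markers fitted a blood progenitor preparation in part: Runx1, Myb and Lmo2, active in progenitors, had no RH interval, while 4 of 4 neural and 4 of 4 stromal genes were called in every RH library. Of 10 progenitor genes that should lack the mark, 5 were called in RH VEH 1, 4 in RH VEH 2, 7 in RH MET 1 and 5 in RH MET 2, Gata2, Tal1, Flt3 and Cebpa among them in each. Defining genes of neutrophils and mast cells had no interval (0 of 4 each), B cell genes gave 2 of 5, T cell genes 4 or 5 of 5, erythroid genes 0 or 1 of 4 and endothelial genes 1 of 4. H3K27me3 calls do not measure how many cells of a type were present, and in bulk chromatin fewer cells with the mark and less mark per cell cannot be told apart.

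More places were marked in both metformin libraries alone than in both vehicle libraries alone. The 739 regions were 4.99% of the 14806 called in at least 1 RH library, and the 54 were 0.365%. The 236 genes were 2.99% of 7887, and the 16 were 0.203%. Most marked features did not separate the treatments by this rule. All 4 RH libraries called 6987 regions and 5611 genes, 3 of them called 1714 and 708, and only 1 called 4076 and 952. The same 4 libraries split otherwise gave 151 regions for RH VEH 1 with RH MET 1 and 406 for RH VEH 2 with RH MET 2, and 76 for RH VEH 1 with RH MET 2 and 603 for RH VEH 2 with RH MET 1. On genes these splits gave 39 and 130, and 18 and 177. In each of the 3 splits the pair that lacked RH VEH 1 had the larger count. Without RH VEH 1, 1038 regions stood in RH MET alone against 986 in RH VEH 2 alone, and 369 genes against 306. With the 11620 highest intervals of each library the region counts were 338 and 196, and 300 of the 739 were among the 338. At a minimum summit height of 15 the counts were 779 and 0, and 96 of the 739 were among the 779. That height kept 38.8% of the intervals of RH VEH 1, 47.6% of RH VEH 2, 50.8% of RH MET 1 and 53.2% of RH MET 2. RH MET had 16068 ± 1147 intervals and RH VEH 12480 ± 1216 (SD, n = 2 each; exact permutation test, two-sided p = 0.333, the smallest that 2 against 2 allows). Covered length was 127 ± 6.44 Mb against 118 ± 53.1 Mb (exact permutation p = 1), with RH MET values lying between those of the vehicle libraries.

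**Figure D1:**
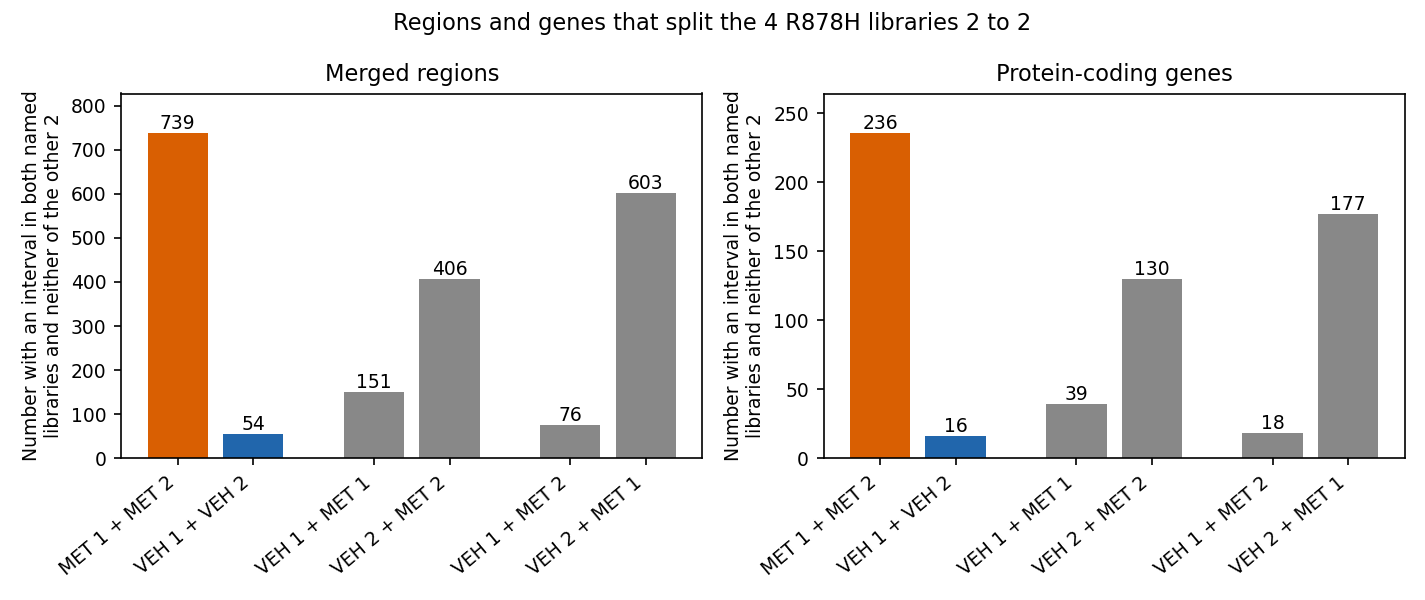
Number of merged regions (left) and protein-coding genes (right) with an interval in both libraries named under a bar and in neither of the other 2 R878H libraries. The metformin pair has 739 regions and 236 genes and the vehicle pair 54 and 16, and the grey bars give the 2 other ways of pairing the 4 libraries, up to 603 regions and 177 genes.

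Regions marked in the metformin libraries alone were narrow and of low rank. Their median covered length was 4.0 kb and their median summit stood at percentile 32.0 within its own library, against 8.9 kb and percentile 72.7 in regions called in all 4. The 54 vehicle regions had a median of 4.55 kb and percentile 18.1. The other splits were alike, with medians of 3.35 to 6.3 kb and percentiles of 18.1 to 29.0. A gene span was overlapped by 359 of the 739 (48.6%) and a listed start site by 119 (16.1%), against 81.1% and 53.0% of regions called in all 4. Within 10 kb of such a shared region lay 183 (24.8%), and 24.8% of the shared regions also lay within 10 kb of another.

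The chromosomes differed between the directions. The X chromosome held 47 of the 739 (6.36%) and 14 of the 54 (25.9%), where 12.6% of all regions tested lay on it. The X share was 29.8% and 34.8% in the 2 other pairs that hold RH VEH 2, and 5.96% and 3.95% in those that hold RH VEH 1 and a metformin library. The part of these library differences in the X shares was not tested. On autosomes alone the counts were 692 and 40.

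The calls of the wild-type libraries did not enter the rule, but their intervals helped set the bounds of the merged regions. Regions rebuilt from the 4 RH libraries gave 886 in RH MET alone and 63 in RH VEH alone. With the regions of the whole study, the wild-type libraries marked most of the same places. At least 1 WT library called 611 of the 739 regions, since 128 (17.3%) had no WT call and 115 (15.6%) had all 4. Over all regions called in at least 1 RH library, 14.4% had no WT call and 53.7% had all 4. Of the 54, 8 had none (14.8%) and 7 had all 4. In the other splits the share without a WT call ran from 8.61% to 25.0%. Of the genes, 34 of 236 (14.4%) had no WT call and 50 had 4. In the vehicle pair 2 of 16 genes (12.5%) had no WT call. The corresponding shares in the other gene splits were 2.56%, 3.85%, 0% and 3.95%. The share over all called genes is not given, and none of these differences was tested.

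**Figure D2:**
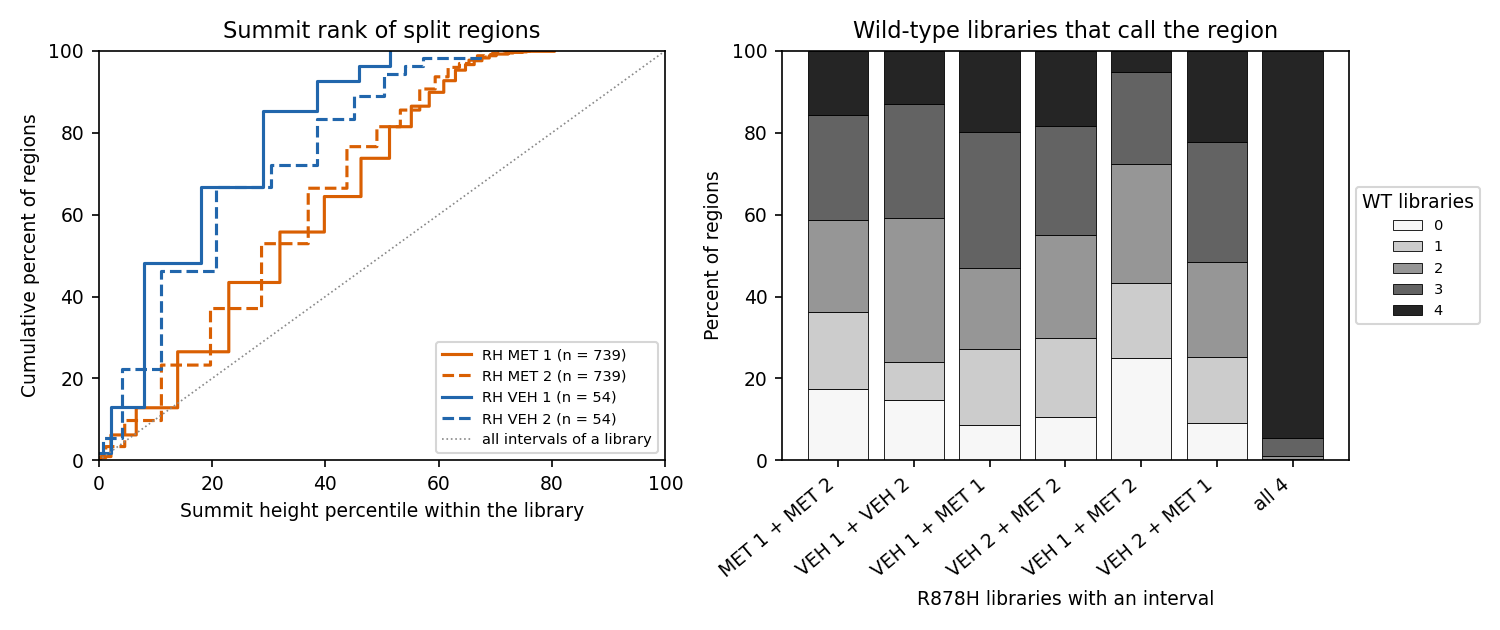
Left, cumulative percent of the regions that separate the treatments against the percentile of their summit height within each library that calls them, with a dotted line for all intervals. Right, percent of regions by how many of the 4 wild-type libraries call them, for each pair of R878H libraries and for regions called in all 4; regions called in all 4 stand almost wholly at 4 wild-type calls, and 17.3% of the metformin regions at 0.

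Irf1, an interferon-induced transcription factor, had 40.5% of its span covered in RH MET 1 and 47.7% in RH MET 2, and 0% in RH VEH 1, RH VEH 2 and all 4 WT libraries (chr11:53770014-53778374). Its interval ran from 1.61 kb before to 3.39 kb after the start in RH MET 1 and from 4.41 kb before to 3.99 kb after it in RH MET 2. The CG-rich promoter printed above thus lay inside both, and the nearest RH VEH interval was 130 kb away. The summits had heights of 17 and 13, percentiles 58.3 and 37.0. The Irf1 call held when every library was limited to its 11620 highest intervals and was lost at a minimum summit height of 15, as was that of the next gene. Usp18, a protease that removes Isg15 and damps interferon signalling, was covered over 16.8% and 4.0% in RH MET 1 and 2 and 0% in the other 6 libraries. No start site of it was in the promoter table.

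These were the 2 of 13 callable interferon pathway genes that separated the treatments (15.4%, against 2.99% of all genes called), and none did in reverse. A count of 2 is too small to set the list apart. A further 7 of the 13 were called in all 4 RH libraries. Socs1, a feedback inhibitor of cytokine signalling, was covered over 80.6% and 100% in RH VEH and 100% in each RH MET library, and Tlr9, a sensor of CpG DNA, over 99.9% to 100%. Irf8, a factor of monocyte and dendritic cell fate, ranged from 14.0% to 19.9% with overlapping groups. Isg15 had 41.4% in RH VEH 2 and Tlr7 66.1%, and both had 0% in the other 3. Cxcl9, an interferon-gamma-induced chemokine counted with the chemokines, had 13.0% and 33.8% in RH MET 1 and 2, 0% in RH VEH, 54.5% and 63.4% in WT MET and 0% in WT VEH. Its start site lay inside both RH MET intervals, but the RH MET 1 summit ranked at percentile 6.63, and the call was lost under both of those settings. None of 12 callable inflammatory cytokine and receptor genes separated the treatments, too short a list to be read against the 2.99%.

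Csf3r, the receptor through which granulocyte colony-stimulating factor drives neutrophil formation, had 6.50% and 15.6% of its span covered in RH MET and 0% in both RH VEH libraries (chr4:126023441-126044975). All 4 WT libraries covered it too, over 10.2% to 40.9%, so the vehicle-treated R878H pair stood apart from 6 libraries. The Csf3r call was lost both with an equal number of intervals and at the minimum summit height. It was 1 of 13 callable myeloid genes (7.69%, against 2.99% of all genes called), a count too small to set the list apart. Cebpa, Cebpe, Cd14 and Mmp9 were called in all 4 RH libraries over at least 87.6% of their spans. Cebpb, a stress granulopoiesis factor, followed no treatment: it was covered over 100% in RH VEH 2 and RH MET 1 and 0% in the other 2.

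Of 23 callable stem cell and self-renewal genes, 2 were called in RH MET alone (8.70%, against 2.99% of all genes called) and none in reverse. This count is too small to set the list apart. Msi2, an RNA-binding protein that sustains self-renewal, had 0.844% and 1.21%, and Mllt3, a chromatin reader that sustains stem cells, had 0.989% and 0.987%. Both had 0% in the other 6 libraries, and neither interval reached the start site. The Mllt3 call was lost with an equal number of intervals and at the minimum summit height, and the Msi2 call at the minimum summit height. Egr1, Gata2, Hoxa9 and Hoxa10 were covered over 98.2% to 100% in every RH library, and Meis1 over 10.1% to 11.5%. Vwf, von Willebrand factor of megakaryocytes and endothelium, had 5.23% and 3.74% in RH MET and 0% in RH VEH. It was the 1 of 11 erythroid and megakaryocyte genes to separate the treatments (9.09%, against 2.99%), again too small a count to set the list apart. The Vwf call held under both settings.

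Dntt encodes terminal transferase, which adds nucleotides at antigen receptor joints. It was the 1 of 21 callable lymphoid genes called in RH VEH alone (4.76%, against 0.203% of all genes called). A count of 1 is too small to set the list apart. The Dntt call held with an equal number of intervals and was lost at the minimum summit height. Its span was covered over 10.6% in RH VEH 1 and 16.5% in RH VEH 2 and 0% in both RH MET libraries (chr19:41029275-41059525). The intervals began 0.726 and 1.33 kb after the start, past the CG-poor promoter printed above. In WT cells the calls ran the other way, with 18.3% and 17.6% in WT MET and 0% in WT VEH. The remaining 20 lymphoid genes did not separate the groups. Pax5, for example, had 28.9% and 73.6% in RH VEH and 44.3% and 62.9% in RH MET.

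**Figure D3:**
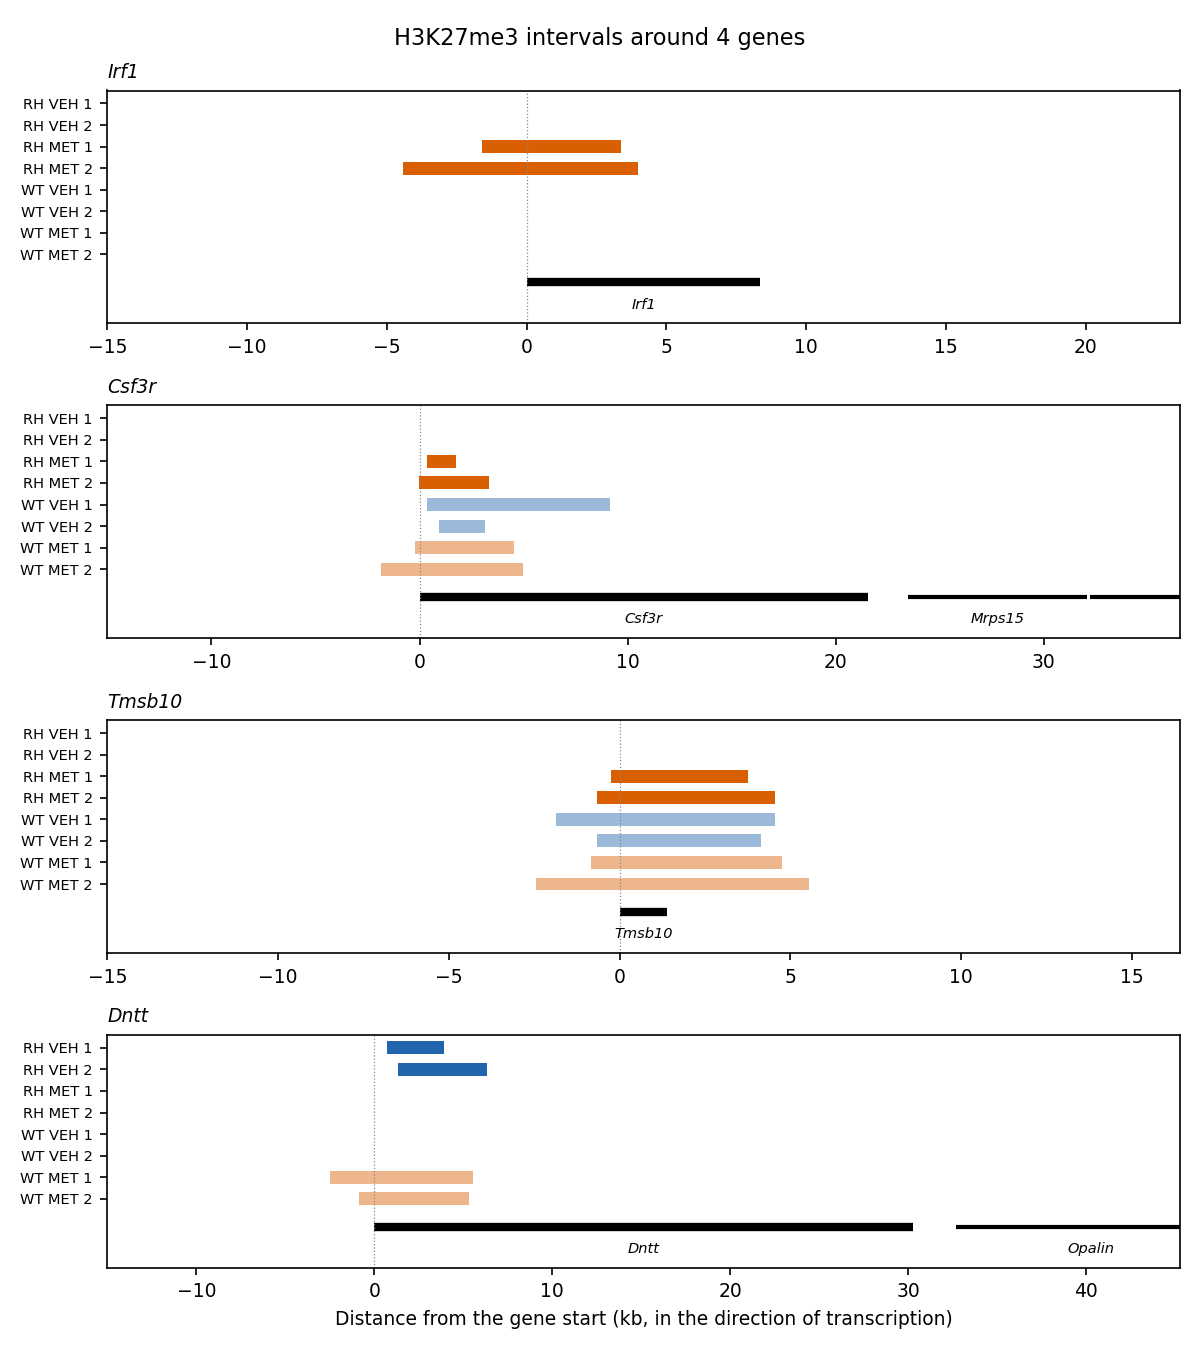
Intervals (bars) around Irf1, Csf3r, Tmsb10 and Dntt in each library, by distance in kb from the start of the gene span (dotted line; the Csf3r start site of the promoter table lies to its right, inside both R878H metformin intervals), with gene spans in black. Metformin libraries are orange and vehicle libraries blue, R878H in full and wild type in pale colour; at Irf1 the 2 R878H metformin libraries alone have an interval, and at Dntt the pattern of R878H and wild-type calls is opposite.

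Lists of metabolic genes tied to metformin or to the methyl cycle gave 0 or 1 call each, as did the other lists in this paragraph. These counts are too few to be read against the 2.99% of all genes called. Of 15 callable genes of AMPK signalling, metformin transport and response, Slc22a2 separated the treatments. It encodes the organic cation transporter that takes metformin into kidney cells, with 5.90% and 8.15% covered in RH MET and 0% in RH VEH, and the nearest RH VEH interval was 2.51 kb away. The related exporters Slc47a1 and Slc47a2 were covered in all 4 RH libraries, over 71.2% to 97.7% and 46.2% to 77.8%. Acaca, acetyl-CoA carboxylase, had 1.16% and 4.71% in RH VEH and 8.0% and 9.47% in RH MET. Acacb, the other acetyl-CoA carboxylase gene of the list, had 8.50% and 7.16% in RH VEH and 3.72% and 7.16% in RH MET. Of 13 callable one-carbon genes, Sardh, mitochondrial sarcosine dehydrogenase, was called in RH MET alone, over 1.33% and 3.22%. The calls of Slc22a2 and Sardh were lost both with an equal number of intervals and at the minimum summit height. None of 4 callable complex I genes, 7 cell cycle inhibitors and tumour suppressors, or 14 genes of the Polycomb and DNA methylation machinery separated the treatments. Cdkn2a was covered over 100% in all 4. Dnmt3a itself had 0.709% in RH VEH 1, 8.19% in RH VEH 2, 5.85% in RH MET 1 and 5.88% in RH MET 2. The housekeeping genes Actb and Gapdh had 0% in every library, and none of 13 stromal and endothelial or 3 mast cell, basophil and eosinophil genes separated the treatments.

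Some genes separated the treatments under each of 3 settings on the intervals: an equal number of intervals per library, a minimum summit height of 15, and no vehicle interval within 1000 bp. Of the 236 metformin genes 57 did so, and 0 of the 16 vehicle genes. The minimum height kept a smaller share of the intervals in each RH VEH library than in each RH MET library. These counts therefore cannot be compared between the directions. Noxa1, an activator subunit of NADPH oxidase, had 39.9% and 37.8% in RH MET 1 and 2 and 0% in the other 6 libraries, with its start site inside both intervals. Tppp3, a tubulin polymerization-promoting protein, had 46.4% and 92.1% and was also 0% in the other 6. Fgf22, a fibroblast growth factor, had 56.5% and 34.6%, and the zinc finger gene Zfp629 had 34.1% and 36.4%. Of the other 6 libraries WT MET 2 alone called either of these genes. Nhlrc1, the ubiquitin ligase malin, had 89.4% and 100%, with 71.9% in WT MET 1 alone among the rest. Adamtsl4, a matrix protein, had 28.4% and 36.9%, lay 151 kb from any RH VEH interval, and was called in 3 WT libraries.

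In 12 of these 57 genes the metformin interval belonged to a neighbouring domain that a vehicle library also called outside the gene. Nkx2-6, a homeobox gene of pharyngeal and cardiac development, was covered over 100% in both RH MET libraries and 0% in both RH VEH libraries. Among WT libraries, WT VEH 1 alone had an interval over the gene. The RH MET summit heights of 85 and 86 belong to intervals that run well beyond the gene. The nearest RH VEH interval, 12.1 kb away, was in RH VEH 1. RH VEH 2 had no interval in that merged region, and it lacked 5 regions in all that reached percentile 90 in at least 4 other libraries, another of them over Epor, the erythropoietin receptor gene, which was covered over 97.8% in RH VEH 1, 0% in RH VEH 2 and 72.1% in each RH MET library. RH VEH 1 and both RH MET libraries lacked no such region, and WT VEH 1 lacked 3 and WT MET 2 4. Il25, a type 2 cytokine, had 41.6% in each RH MET library beside a domain with summits of 81 and 68. Mgat4f, Hexim1, an inhibitor of the elongation factor P-TEFb, Ltbr, the lymphotoxin beta receptor, and Fmod, the collagen-binding fibromodulin, were of the same kind, and Il25, Mgat4f, Ltbr and Fmod were called in all 4 WT libraries.

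Over all 236 metformin genes, 158 lay in regions that no RH VEH library called, 65 at the edge of regions that one did, 5 in regions of both kinds, and in 8 the 2 RH MET libraries called different regions. Of the 16 vehicle genes the counts were 8, 6, 1 and 1. Start sites were listed for 178 of the 236, and 105 of these had one inside both RH MET intervals, as did 6 of 10 vehicle genes. With an equal number of intervals 156 of the 236 still separated the treatments, and with the minimum summit height 89.

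The genes with the highest cover were mostly small. Tmsb10, the actin-sequestering thymosin beta 10, had 100% in both RH MET libraries, 0% in both RH VEH libraries and 100% in all 4 WT libraries (chr6:72957347-72958748). The nearest RH VEH interval was 127 kb away, and the summits had heights of 15 and 12. The calls of Tmsb10, Rras and Rln3 held with an equal number of intervals and were lost at the minimum summit height. Rras, a Ras-related GTPase, had 93.0% in each RH MET library, with 86.4% in WT VEH 2, 100% in WT MET 1 and 0% in the other WT libraries. Rln3, a relaxin neuropeptide, had 100% in both RH MET libraries and 0% in the other 6. Tex50, Rd3l, Il1f10, Prss33 and the olfactory receptor genes Olfr281 and Olfr286 had 100% in both RH MET libraries, Defb26, a defensin, 98.9% and 100%, and Upk1a, a uroplakin, 89.6% and 100%. For Tex50, Il1f10 and Defb26 1 RH MET summit was at or below percentile 6.63, and their calls, like that of Olfr286, were lost under both settings.

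**Figure D4:**
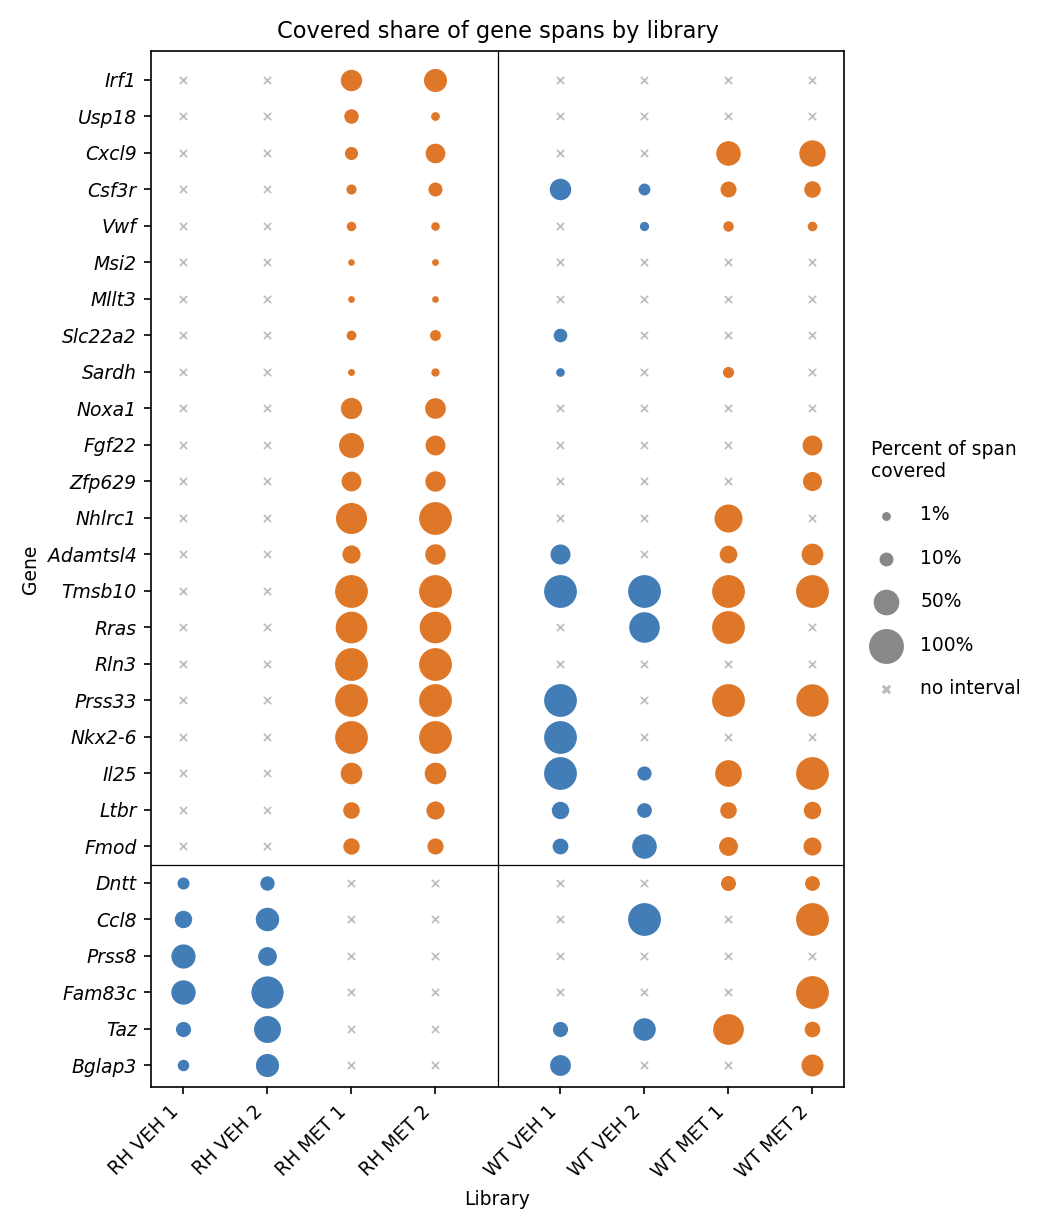
Percent of the gene span covered by intervals (circle area grows with the percent, crosses mark no interval) for 28 genes in the 4 R878H and 4 wild-type libraries; genes above the horizontal line were called in both R878H metformin libraries and neither R878H vehicle library, and those below it the reverse. Irf1, Usp18, Msi2, Mllt3, Noxa1 and Rln3 have no interval in any other library, and Tmsb10, Csf3r, Ltbr, Il25 and Fmod have one in all 4 wild-type libraries.

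Counts in developmental gene families were small, as is the 2.99% over all genes called, and set none of these families apart. All 39 Hox cluster genes were called in each RH library, and 0 of 39 callable Wnt ligands and receptors, 0 of 34 forkhead, 0 of 32 Sox and T-box, 0 of 38 collagen and 0 of 82 neurotransmitter receptor genes were called in one treatment alone. Growth factors of the BMP, GDF, FGF and TGF-beta group gave 1 of 57 in RH MET alone, Fgf22, cadherins and protocadherins 1 of 71, Dchs2, and integrins 0 of 18. Most metformin genes belonged to no family counted here, since 42 of the 236 did.

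Transporters and small receptor families held a few of them. Solute carriers gave 9 of 177 in RH MET alone (5.08%) and none in reverse, with 133 called in all 4. Slc1a4, a neutral amino acid transporter, had 7.86% and 9.54%, and Slc26a9, a chloride transporter, 17.4% and 23.2%. ATP-binding cassette transporters gave 3 of 25: Abca1, the cholesterol exporter, had 1.54% and 1.38%, Abcb1b, a multidrug exporter, 1.25% and 2.43%, and Abcc2, an organic anion exporter, 6.07% and 2.86%. In Abca1 and Abcb1b these short intervals covered a start site. At the minimum summit height the calls of Slc26a9 and these 3 transporters were lost, and that of Abcc2 also with an equal number of intervals. Interleukins and their receptors gave 3 of 35, Il1f10, Il25 and Il27ra. Il27ra, the interleukin 27 receptor, had 12.3% and 22.0%, partly at the edge of a domain with summits of 100 and 92 that RH VEH also called. Olfactory receptors gave 4 of 58, Olfr159, Olfr281, Olfr286 and Olfr313, and near-identical copies make read placement in this family uncertain. Chemokines gave Cxcl9 in RH MET and Ccl8 in RH VEH, of 17 called. The shares in this paragraph stand against 2.99% of all called genes for RH MET alone and 0.203% for RH VEH alone. They were not tested, and a count of 1 in each direction is too small to set the chemokines apart.

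By covered length the leading metformin regions lay over Gm39774 (chr2:26774801-26793800; 11.2 and 11.8 kb in RH MET 1 and 2), over Slc6a21 and the cation channel gene Trpm4 (chr7:45284201-45304800; 10.6 and 11.8 kb), and over St6gal1, a sialyltransferase (chr16:23261001-23275000; 10.2 and 10.6 kb). Alms1, a centrosomal gene, and Crybg1 were also among the first 8. By summit rank the first was a short interval 28.7 kb from Tmprss2 (chr16:97535401-97536000), 0.6 and 0.2 kb long at percentiles 80.4 and 76.4 and called in no WT library. Slc39a14, a zinc and manganese importer, followed, with 4.6 and 5.4 kb at percentiles 72.2 and 71.6 (chr14:70346201-70358200). Ankdd1a had 3.2 and 3.4 kb at percentiles 68.9 and 71.6 and no WT interval. Ank, a pyrophosphate transporter, Camsap1, a microtubule minus-end protein, Abi2, an actin regulator, Slc1a4 and Rph3al also kept the split with an equal number of intervals and with the minimum summit height.

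The vehicle regions ranked low by comparison with other intervals of their libraries, none above percentile 51.5 in RH VEH 1. Ordered by the smaller of the 2 covered lengths, Frmpd4 came first (chrX:168321401-168343000), with 8.4 and 12.8 kb in RH VEH 1 and 2. Other regions within Frmpd4 went the opposite way, 3 of them in RH MET alone, and the neuronal gene Nav2 had 4 regions in RH MET alone and 1 in RH VEH alone. Asic2, Dock3 and Limch1 also held regions of both directions, the last 2 genes being chosen after their values were seen. Cfap57, a cilium gene, had 5.6 and 13.2 kb at percentiles 38.6 and 54.1 (chr4:118603801-118618400) and was called in all 4 WT libraries. Among genes, Fam83c had 53.8% and 96.2%, and Prss8, the epithelial protease prostasin, 53.0% and 30.4% with no WT call. Ccl8, a monocyte chemokine, had 25.8% and 49.5% in RH VEH and 100% in WT VEH 2 and WT MET 2. Taz, which encodes the cardiolipin-remodelling enzyme tafazzin, and its overlapping neighbour Dnase1l1 on the X chromosome were covered in all 4 WT libraries as well. Their RH VEH values were 18.6% and 66.3% for Taz and 10.2% and 40.9% for Dnase1l1. All 16 genes still separated the treatments with an equal number of intervals, and 2 with the minimum summit height.

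The same contrast in wild-type cells shares no library with this one. Of the 739 regions, 58 had an interval in each WT MET library and in no WT VEH library, which is 7.85% of the 739 and 8.08% of the 718 such WT regions, and 5 had the opposite pattern (0.677%). Over all regions called in at least 1 RH library these shares were 3.39% and 0.344%. The vehicle pair shared 11.1% of its 54 regions with the 718, and the pairs of the other splits 8.13% to 10.5% of theirs. On genes 15 ran the same way in both genotypes, 6.36% of the 236 and 8.15% of the 184 WT genes, among them Cxcl9, Rd3l and Tmem14a. Another 3 ran the opposite way, with calls in WT VEH alone. RH VEH 2 with RH MET 1 and RH VEH 2 with RH MET 2 also held 3 such genes each, and each pair with RH VEH 1 held 0. Shares over all called genes are not given. The vehicle pair shared 12.5% of its genes with the 184, and the pairs of the other splits 4.62% to 11.1% of theirs. Names among the 15 that fall outside the rule for named genes, such as Lrrk2, a kinase mutated in Parkinson's disease, and Nr1i2, the xenobiotic receptor, were chosen after their values were seen.

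The extent of the mark in shared regions was tested apart from presence. In the 6987 regions called in all 4 RH libraries, the median covered length was 6.4 kb in RH VEH 1, 11.2 kb in RH VEH 2, 8.6 kb in RH MET 1 and 9.4 kb in RH MET 2, so the metformin libraries lay between the vehicle libraries. After centring on each library's median of log2 covered base pairs, 0 regions (0%) differed between treatments at an adjusted p under 0.05 by limma, and the smallest adjusted p was 0.999. At an unadjusted limma p under 0.05 there were 215, of which 124 were wider in RH MET. The 215 are a smaller share of the 6987 than the 0.05 that the threshold alone would give. The median log2 difference of RH MET from RH VEH was -0.02, and 0.07 without centring. The test had 2 libraries a group, and without RH VEH 2 or without RH MET 1 it called 4 and 6 regions.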

How the data were processed

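H3K27me3 chromatin immunoprecipitation sequencing of c-Kit-enriched mouse bone marrow cells gave 8 libraries and 1 input library, for which no interval list was analysed here. Per the submitters' processing notes, bcl2fastq 2.20, BWA 0.7.12 and build mm10 were used, with no roles stated. The interval caller, with its filters and any scaling for depth, is not given in the sources used here. Per the file headers, the authors deposited an interval list and a summit list for each library, called per library, and a list of merged regions. The deposited summit height is a score without a stated unit, used here to describe intervals and to rank them within a library. The minimum height of 15 was the same for every RH library, although heights may not be comparable between libraries. Read depth is unknown, so no counting interval is given, and a library without an interval can still carry the mark below the caller's limit.

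Regions rebuilt from the intervals equalled the 18556 deposited ones. Gene spans are those of 21887 protein-coding genes of GRCm38.p6, the assembly of mm10. Overlap of at least 1 bp made a call, and the counts of 2 libraries against 2 were set beside the 2 other splits. Library totals were compared by exact permutation, two-sided, with Benjamini-Hochberg adjustment over 4 totals (smallest adjusted p 0.667). Covered length in shared regions was tested with limma 3.58.1 in R 4.3.3, on log2 covered base pairs, which were computed here. Python 3.11.15, pandas 2.3.3, numpy 2.4.6, scipy 1.17.1 and matplotlib 3.10.9 were used, and scripts were tested on simulated data. Promoters were found for 75.4% of the 236 and 62.5% of the 16 genes, so a comparison of their composition is void and none is given.

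The members, the 14 gene lists and the 30 families, matched by symbol pattern, were chosen with earlier results of these data known. Tpsab1, Mx1 and Mx2 were not matched. The rule for named genes took, per direction, the 12 genes with the highest cover in the lower of the 2 libraries, the 8 regions leading by cover and the 8 by summit percentile, up to 4 genes of each list, 12 genes that held under 3 interval settings, and the anchors Hoxd11, Pax6, Kit, Irf1, Csf3r, Dntt, Actb and Gapdh. Other genes are named as examples of their list that did not separate the treatments. Alternatives were the 11620 highest intervals of each library, a summit height of at least 15, a gap of 1000 bp, a cover of at least 50% of regions or 10% of genes, autosomes alone, regions rebuilt from the 4 RH libraries, 2500 bp around start sites, other normalizations of width, a minimum width of 2000 bp, a replicate block and leaving out each library. Results on some genes and families that fall under these rules are not reported here.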

Additional observations from a re-analysis of the deposited data

Results flagged for a closer look

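In 5 genes both R878H metformin libraries differed in one direction from both R878H vehicle libraries while both wild-type metformin libraries differed in the opposite direction from theirs. The difference between genotypes was not tested, and no share over all called genes is given beside this count. Olfr159, an olfactory receptor gene, was covered over 63.4 percentage points more of its span in RH MET than in RH VEH, and the WT difference was -60.9. Saa4, a serum amyloid gene, had 39.2 in R878H and -13.2 in WT, and Hilpda, a lipid droplet protein gene, 3.81 and -10.6. Dntt had -13.6 in R878H and 17.9 in WT, and Kdm3b, a histone H3 lysine 9 demethylase gene, -1.07 and 0.433. The lower group had no interval in either library in each of these contrasts. Olfr159, Hilpda and Kdm3b lay at the edge of domains that the other RH group also called, 0.79, 0.09 and 0.23 kb away. Saa4, Hilpda and Kdm3b were chosen after their values were seen.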

How the results depend on the processing

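Keeping the 11620 highest intervals of each library left 338 regions in RH MET alone and 196 in RH VEH alone, and 44 genes in RH VEH alone. Covered length then turned to a difference of -4.12 Mb from 9.27 Mb. With a minimum summit height of 15 there were 779 regions in RH MET alone, of which 96 were among the 739, and 0 in RH VEH alone, 422 genes in RH MET alone and 3 in RH VEH alone, and 1 shared region differed in width. A cover of at least 10% of the span gave 136 genes in RH MET alone and windows around start sites 152, and with the gap of 1000 bp 10 genes stood in RH VEH alone. Leaving out each library gave 1038 to 2410 regions and 369 to 711 genes in RH MET alone, and 135 to 986 regions and 52 to 306 genes in RH VEH alone, since 1 library then stands for its group. Over these runs the difference ran from -28.2 Mb (without RH VEH 1) to 46.8 Mb in covered length and from -3 kb to 0.6 kb (without RH VEH 2) in median interval width, from 2729 to 4448 in intervals and from 199.5 to 1042.5 in genes called, and 0 to 6 shared regions differed in width. In those width fits the lone library is assumed to vary like the other group. The cause of these changes was not tested, apart from the fewer intervals or libraries that a setting leaves. For 72 named genes the treatment difference in percent of the span covered was also followed. It was rated as not moved for 55 genes when libraries were cut to the same interval number. Under the summit height limit 26 genes had that rating. The rating does not ask whether a call was kept. Csf3r and Cxcl9 were rated as not moved at the same interval number, although their calls were lost. Libraries share only a number, and in shared regions the deviations of same-numbered libraries correlated at 0.0382. With the replicate block the exact sign-flip p was 0.5 for intervals and genes called, the smallest that so few pairs allow. It was 1 for covered length and median width. With the same block limma called 0 regions (smallest adjusted p 0.869).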
